A study of Homo sapiens with 8 samples.

Results

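The response of BC3 to lenalidomide was measured on 4 of the 8 arrays of the series, taken by the cell line and the treatment that label each sample. BC3 is a primary effusion lymphoma cell line, a single line grown from one tumour. Its cells were kept with 5 µM lenalidomide (2 arrays) or with the solvent DMSO (2 arrays) in medium that was otherwise the same. The other 4 arrays held BCBL1, another primary effusion lymphoma line, with 5 µM lenalidomide (2 arrays) or DMSO (2 arrays). The arrays of a group were technical replicates, so p-values here reflect how arrays varied and say nothing of variation among cultures. How long the cells were exposed is not stated in the labels.

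Primary effusion lymphoma is a B-cell lymphoma of the body cavities that carries Kaposi sarcoma herpesvirus. Its cells have a plasma cell-like state in which most B-cell genes are silent. Cereblon is the part of a cullin ubiquitin ligase that picks its substrates; lenalidomide binds it and thereby sends the lymphoid transcription factors IKZF1 and IKZF3 to the proteasome, a loss of protein that need not show in their transcripts. In plasma cell tumours that loss is known to lower IRF4 and MYC, and in other B-cell lymphomas to raise interferon-stimulated genes.

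An intensity below is a probe's deposited signal on 1 array, in linear units with no scaling between arrays. A change is the difference of log2 values, lenalidomide minus DMSO, after background correction and quantile normalization, and ± gives its standard error with n = 2 arrays per group. A gene was called higher or lower where limma's p, adjusted by Benjamini-Hochberg over the 12719 genes tested, was under 0.05. The 4 BC3 arrays had similar brightness, with medians between 139.6 and 153, and 47.7% to 49.4% of their probes were above background. Gene values correlated across genes with r of 0.994 between the lenalidomide arrays and 0.995 between the DMSO arrays, against 0.988 to 0.989 between an array of one treatment and an array of the other. Genes are not independent replicates. The gene lists below were chosen with earlier results of these data known, so a list's share of calls is a description and no test.

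The label of a plasma cell-like lymphoma line was checked against marker genes. All 6 plasma cell markers (SDC1, PRDM1, XBP1, CD38, TNFRSF17 and IRF4) were above background on all 4 BC3 arrays. Of the 4 B-cell markers with a named probe, PAX5 was above background on 0 arrays, MS4A1 on 1 lenalidomide array, and CD79A and CD79B stayed near background (141 to 173). Among epithelial markers EPCAM was bright, at 7075 and 5246 with lenalidomide, against 5876 and 7257 with DMSO. LYZ (myeloid), NKG7 (natural killer cell), DCN (fibroblast), VWF and PROX1 (endothelial) were above background on 0 of the 4 arrays. Other markers of these cell types were not silent. CD3E, CD2, CD7 and GZMB, 4 of the 6 T and NK cell markers, were above background on all 4 arrays, as were the myeloid markers CD14 and CD68. COL1A1, COL1A2 and PECAM1 were above background on some arrays. The summed intensities of the 6 T and NK cell markers were 1184 and 1039 with lenalidomide, against 1087 and 1199 with DMSO, ranges that overlapped.

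Lenalidomide changed 566 genes in BC3, or 4.45% of those tested, and most of the change was upward. With lenalidomide 414 genes were higher (3.25%) and 152 lower (1.20%), so that 73.1% of the called genes rose. The imbalance grew with the size of the change: 293 genes were higher and 88 lower by at least 1.5-fold, 90 higher and 5 lower by at least 2-fold, and 29 higher and 0 lower by at least 3-fold. Among genes that rose the median change was 0.68, and among those that fell it was -0.61. In RNA of a whole culture, more cells with a transcript and more transcript per cell cannot be told apart. The median over all genes tested was -0.012, and 76.9% of them lay within 0.25 of 0. Quantile normalization gives every array the same distribution, so a median near 0 is largely set by it. Genes that rose started from a median DMSO intensity of 339, close to the 357 of all genes, while genes that fell started from 695. A gene near background under DMSO can rise but hardly fall, and 35 of the 414 rises were not above background there. With only probes above background on all 8 arrays, 68.9% of the called genes rose. The part of this floor in the imbalance was not tested. In all 566 called genes the normalized values of the lenalidomide arrays and the DMSO arrays did not overlap, but that was also so, with lenalidomide higher, in 23.1% of all genes tested and, with lenalidomide lower, in 25.4%. The number of calls depended on each array: it was 313 without lenalidomide array a, 228 without lenalidomide array b, 234 without DMSO array a and 206 without DMSO array b, where a group's remaining array was taken to be as variable as the other groups. All 566 genes kept their direction in those 4 fits, but values that do not overlap between groups fix that outcome, so it is no further support.

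**Figure D1:**
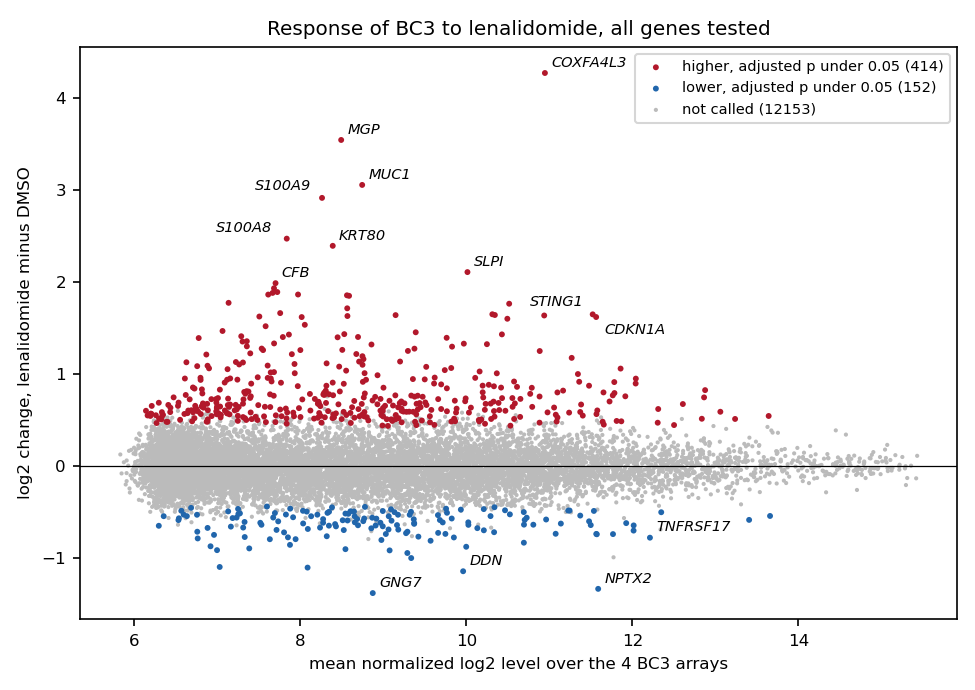
Change of each of the 12719 genes tested (log2, lenalidomide minus DMSO, vertical axis) against its mean normalized log2 level over the 4 BC3 arrays (horizontal axis), with called genes in red (414 higher) and blue (152 lower). Rises reach 4.27 while the largest fall is -1.38, and no fall passes 3-fold.

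The gene that rose most was COXFA4L3, also known as C15orf48 or NMES1, a paralogue of the COXFA4 (NDUFA4) subunit of mitochondrial complex IV. Its intensity was 9862 and 7701 with lenalidomide, against 472 and 622 with DMSO, a change of 4.27 ± 0.13 or 19.2-fold (adjusted p = 1.67e-09). A separate COXFA4L3 probe rose by 2.88. MGP, a vitamin K-dependent matrix protein that inhibits calcification, read 1393 and 1272 with lenalidomide, against 171 and 167 with DMSO, a change of 3.54 ± 0.13 (11.6-fold, adjusted p = 6.22e-09). MUC1, a cell surface mucin, read 1619.7 and 1100.4 with lenalidomide, against 222 and 209 with DMSO (3.05 ± 0.14, 8.29-fold, adjusted p = 8.83e-08). In each of these genes both lenalidomide arrays stood far above both DMSO arrays, though normalized values of the groups overlapped in no called gene.

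Several genes went up from near background. The calprotectin subunit genes S100A9 and S100A8, which encode calcium-binding proteins usually made by neutrophils and monocytes, were among them. S100A9 read 1104 and 797 with lenalidomide, against 159 and 194 with DMSO (7.52-fold), and S100A8 read 686 and 580.5 with lenalidomide, against 158 and 161 with DMSO (5.53-fold). The type II keratin gene KRT80 read 969 and 768 with lenalidomide, against 198 and 229.5 with DMSO (5.24-fold, a change of 2.39), but its next probe rose by only 0.92. SLPI, a secreted inhibitor of leukocyte proteases, was already clear of background under DMSO and read 2524 and 1986 with lenalidomide, against 508 and 696 with DMSO (4.30-fold). UBD, which encodes the ubiquitin-like protein FAT10, read 626 and 514 with lenalidomide, against 194 and 199 with DMSO (3.63-fold). GSDMB, a gasdermin gene, read 871 and 759 with lenalidomide, against 262 and 277 with DMSO (3.61-fold), and its next probe rose by 1.56. The 6 adjusted p-values ran from 9.28e-08 (S100A9) to 6.50e-06 (UBD). The arrays of the groups stood well apart in each, though normalized values overlapped in no called gene.

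Other leading rises came from genes of varied function. RHOB, a stress-induced small GTPase gene, read 1057 and 647 with lenalidomide, against 276 and 272 with DMSO (1.85 ± 0.18), with a wide gap between its lenalidomide arrays. PLAAT4, a phospholipase and acyltransferase gene that retinoids and interferon induce, read 3055 and 2581 with lenalidomide, against 849.9 and 962 with DMSO (1.76 ± 0.13). FBXO32, a ubiquitin ligase subunit also called atrogin-1, read 2414 and 2289.6 with lenalidomide, against 779 and 876 with DMSO (1.65 ± 0.12), and SMOX, the spermine oxidase gene, read 513 and 433 with lenalidomide, against 167 and 207 with DMSO (1.66 ± 0.12). The next probes of FBXO32 and SMOX rose by 2.93 and 2.19. EMP1, a membrane protein gene, was not above background on either DMSO array. It read 467 and 250.2 with lenalidomide, against 129.6 and 147 with DMSO, at least 3.06-fold higher with lenalidomide (adjusted p = 3.45e-04). Such a bound sets the lenalidomide mean against the lowest signal above background, or the probe's own where that was higher. In all, 35 of the 414 genes that rose were not above background under DMSO. Those with the next highest bounds were ST7-AS1 at 2.62-fold and, both at 2.09-fold, CDC42EP5 and the receptor kinase gene ERBB3.

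The falls were smaller and came from brighter genes, which have more room above background to fall. GNG7, a G protein gamma subunit gene, had the largest, with intensities of 376 and 364 with lenalidomide, against 790.1 and 946 with DMSO: it fell by 1.38 ± 0.13 (2.60-fold lower, adjusted p = 2.90e-05). NPTX2, a secreted neuronal pentraxin gene that is bright in these cells, read 2205 and 1869.5 with lenalidomide, against 4893 and 5373 with DMSO and fell by 1.33 ± 0.11 (2.52-fold lower, adjusted p = 1.42e-05). DDN, which encodes dendrin, read 838 and 697 with lenalidomide, against 1503 and 1754 with DMSO and fell by 1.14 ± 0.13. CT45A6, of a family of near-identical cancer-testis genes that a probe may not tell apart, read 154 and 150.3 with lenalidomide, against 252 and 271 with DMSO and fell by 1.10 ± 0.12, down to the edge of background. PLD6, a mitochondrial phospholipase gene of the piRNA pathway, fell by 1.00 ± 0.13 and by 0.85 on its next probe. ACSS1, a mitochondrial acetyl-CoA synthetase, fell by 0.95 ± 0.13 and LRRC26, an accessory subunit of potassium channels, by 0.92 ± 0.12. For these 7 genes each array with lenalidomide was below both DMSO arrays. In normalized values that was so in every gene called lower and in 25.4% of all genes tested. CYTOR, a long non-coding RNA, had no settled direction, because its brighter probe gave -1.10 ± 0.14 and its next probe 0.62, both called. It was the 1 gene of 179 called genes with a second probe for which the probes were called in opposite directions. The calls of NUP43, TMBIM1 and NINJ1, also among the 20 largest falls, held in 1 of the 4 fits that left out a BC3 array (adjusted p up to 0.304, 0.113 and 0.169; such upper values are over all settings tried, here and for the genes that follow).

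**Figure D2:**
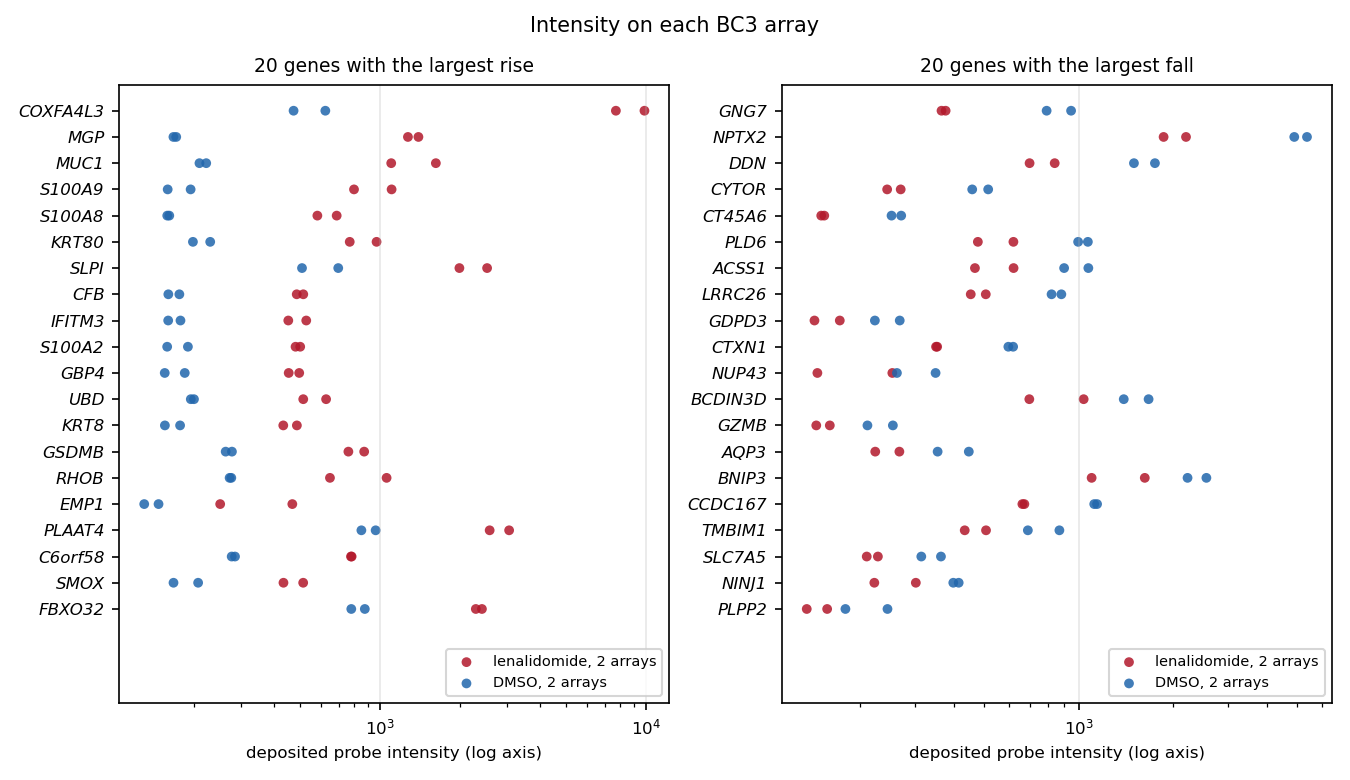
Deposited probe intensity (log axis) on each BC3 array for the 20 genes with the largest rise (left panel) and the 20 with the largest fall (right panel), lenalidomide arrays in red and DMSO arrays in blue. The groups do not overlap in any of the 40 genes, and COXFA4L3 spans 472 to 9862. In normalized values they overlap in no called gene. Of all genes tested 23.1% (higher) and 25.4% (lower) also have no overlap.

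The genes of the drug's own target complex did not pass the threshold. Of 30 tested genes that encode cereblon, its ligase partners or proteins that cereblon-binding drugs recruit, 0 were called by limma, in any setting, while 5 had an unadjusted p under 0.05. Their changes ran from -0.56 to 0.30 with a median of 0.019, against -0.012 for all genes. CRBN, which encodes cereblon, read 1444 and 1254 with lenalidomide, against 1283 and 1595 with DMSO, groups that overlapped (-0.048 ± 0.12, adjusted p = 0.887). IKZF1 read 1447 and 1410.1 with lenalidomide, against 1235 and 1382 with DMSO, slightly brighter on both lenalidomide arrays (0.19 ± 0.14, adjusted p = 0.548). IKZF3 was dimmer on both lenalidomide arrays, at 321 and 269.8 with lenalidomide, against 340.5 and 487 with DMSO, and had the lowest value of the list (-0.56 ± 0.17, adjusted p = 0.0850; -0.58 on its next probe). IRF4, on which plasma cell tumours depend for survival, read 2956 and 2331 with lenalidomide, against 3498 and 2840.4 with DMSO and overlapped between groups (-0.22 ± 0.16, adjusted p = 0.534). The proto-oncogene MYC read 3557 and 3089 with lenalidomide, against 4160.5 and 4152 with DMSO, lower on both lenalidomide arrays (-0.31 ± 0.13, adjusted p = 0.228). These 5 genes were called under none of the 13 other settings tried.

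Many interferon-stimulated effector genes rose. Of 63 tested members 22 rose and 0 fell, or 34.9% higher against 3.25% of all genes. Their median change was 0.39 against -0.012 for all genes, and 55 of the 63 changes were above 0. Of the 22 calls, 17 to 19 held whichever BC3 array was left out. IFITM3, which blocks virus entry at membranes, read 527 and 451 with lenalidomide, against 159.5 and 177 with DMSO (1.93 ± 0.11), and its neighbour IFITM2 read 794 and 728 with lenalidomide, against 304 and 274 with DMSO (1.63 ± 0.15). The sequences of these IFITM genes are alike, so that their probes may share signal. The guanylate-binding protein genes GBP4, GBP1 and GBP2 encode GTPases that act against intracellular microbes. GBP4 read 496 and 453 with lenalidomide, against 155 and 184 with DMSO (1.88 ± 0.13), and GBP1 read 1251 and 1164 with lenalidomide, against 540.4 and 453 with DMSO (1.45 ± 0.16). GBP2, named after its value was seen, was bright, at 3993 and 3556 with lenalidomide, against 1892 and 2137 with DMSO (1.00 ± 0.12). PARP9, an ADP-ribosyltransferase family gene, read 481 and 411 with lenalidomide, against 199 and 203 with DMSO (1.40 ± 0.12), and TNFSF10, the death ligand TRAIL, read 627 and 463 with lenalidomide, against 218 and 229 with DMSO (1.53 ± 0.13). The 7 adjusted p-values ran from 8.12e-07 (IFITM3) to 2.40e-04 (GBP2). In each gene the lenalidomide arrays were both brighter than the DMSO arrays. In normalized values that was so in every gene called higher and in 23.1% of all genes tested.

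Classical antiviral genes split within the list; the genes named here were chosen after their values were seen. IFIT1, which binds foreign RNA ends, read 343 and 336 with lenalidomide, against 165 and 165 with DMSO (1.35 ± 0.13, adjusted p = 3.68e-05). The oligoadenylate synthetase gene OAS3 read 348 and 312 with lenalidomide, against 147 and 178 with DMSO (1.35 ± 0.16, adjusted p = 2.00e-04), and OAS1 read 655 and 652 with lenalidomide, against 305 and 313 with DMSO (1.26 ± 0.13, adjusted p = 1.01e-04). ISG15, a ubiquitin-like modifier, instead read 788 and 829 with lenalidomide, against 673 and 839.8 with DMSO (0.14 ± 0.15, adjusted p = 0.697). MX1, a GTPase that traps virus particles, read 2629 and 2302 with lenalidomide, against 2052 and 2422 with DMSO (0.21 ± 0.12, adjusted p = 0.444). For ISG15 and MX1 the arrays of the groups overlapped, whereas for IFIT1, OAS3 and OAS1 every lenalidomide array was brighter than both DMSO arrays. The latter was also so, in normalized values, in every gene called higher and in 23.1% of all genes tested. The 41 members that were not called ran from -0.18 to 0.51.

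**Figure D3:**
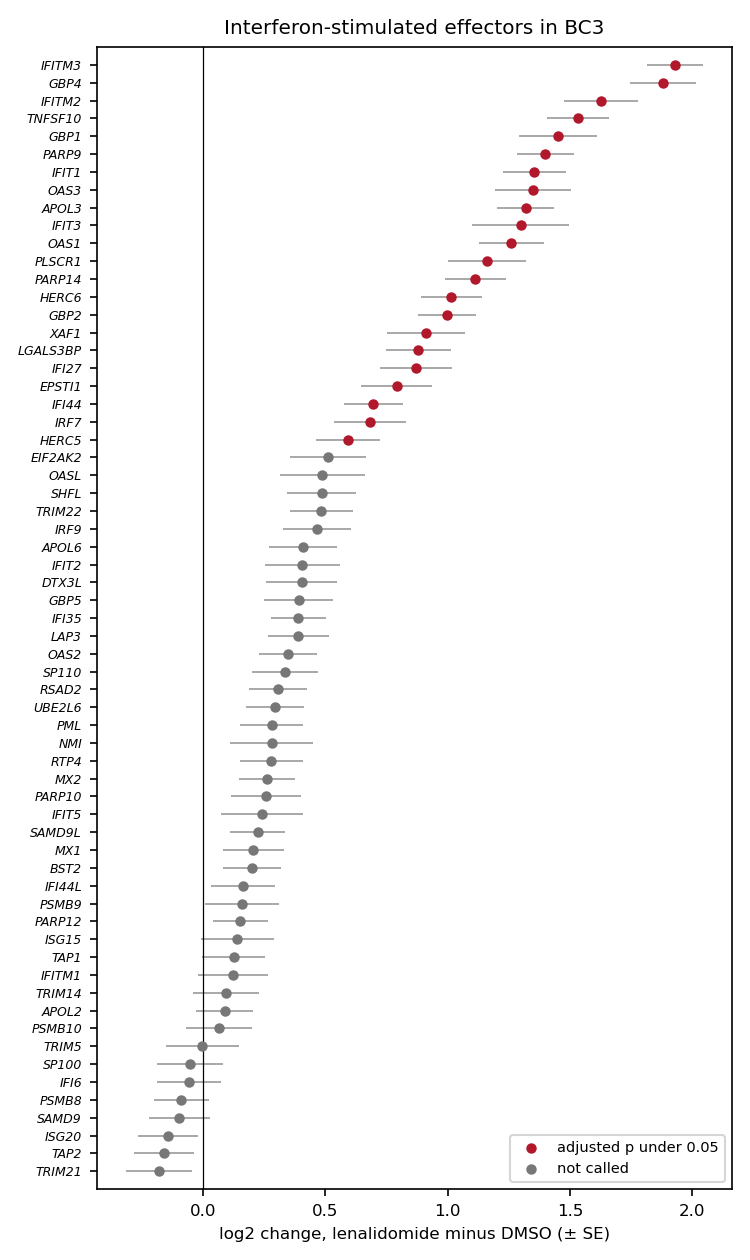
Change of each of the 63 tested interferon-stimulated effector genes in BC3 (log2, lenalidomide minus DMSO, ± SE, n = 2 arrays per group), called genes in red and others in grey. The 22 called genes run from 0.59 to 1.93, and 55 of the 63 points lie right of 0.

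Promoters of these genes were read from RefSeq (GRCh38.p14), 250 bases before to 50 after the gene start, for the core of the interferon-stimulated response element, GAAA and GAAA with any 2 bases between them, on both strands. A promoter was found for 49 of the 63 genes. The motif was in 14 of 18 promoters of genes that rose (77.8%) and in 22 of 31 of those not called (71.0%), against 3.65% of all promoters in the table. Among the other genes that rose it was in 9 of 306 (2.94%), and among genes that fell in 1 of 109 (0.917%). The core of the gamma-activated site, TTCNNNGAA, which can overlap the first motif, was in 5 of 18 promoters of interferon genes that rose (27.8%) and in 5 of 31 of those not called (16.1%), against 7.88% of all promoters. A match is a description of these letters and no evidence of binding. The 50 bases around the motif are given for 6 genes that rose and have it upstream of the gene start, since they carry the one feature that most of this group share. IFITM3, TNFSF10 and GBP1 had the largest rises among such genes, IFIT1 and OAS3 are the antiviral genes above, and LGALS3BP responded more weakly than in BCBL1. Capitals mark each match of the motif or its reverse complement within the window, written 5′ to 3′ on the strand of the gene; IFITM3 and IFIT1 hold 2 matches there and the others 1.
IFITM3 at chr11:320883-320932, minus strand: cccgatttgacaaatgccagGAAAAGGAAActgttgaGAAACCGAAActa
TNFSF10 at chr3:172523588-172523637, minus strand: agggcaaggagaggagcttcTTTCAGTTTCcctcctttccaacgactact
GBP1 at chr1:89065306-89065355, minus strand: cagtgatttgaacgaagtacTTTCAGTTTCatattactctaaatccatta
IFIT1 at chr10:89392487-89392536, plus strand: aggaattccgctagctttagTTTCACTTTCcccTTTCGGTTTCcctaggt
OAS3 at chr12:112938311-112938360, plus strand: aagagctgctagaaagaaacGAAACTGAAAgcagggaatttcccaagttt
LGALS3BP at chr17:78979952-78980001, minus strand: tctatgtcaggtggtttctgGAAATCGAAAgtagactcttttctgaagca
The same 10-base pattern thus lies in either orientation, as GAAA or as TTTC pairs, in genes whose rises range from 0.88 (LGALS3BP) to 1.93 (IFITM3).

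Of the 18 tested sensors and adaptors that start an interferon response, 3 rose and 0 fell. Among all genes tested 3.25% rose and 1.20% fell, the shares to set beside each list of this paragraph. STING1, the adaptor of cytosolic DNA sensing, was bright and rose most, with intensities of 5276 and 5269.5 with lenalidomide, against 1549 and 2133 with DMSO (1.65 ± 0.16, 3.13-fold, adjusted p = 3.95e-05), and its call held under every setting. DHX58, a regulator of RNA sensing, rose by 0.72 ± 0.15 and TLR3, a receptor for double-stranded RNA, by 0.59 ± 0.13; both calls held in 0 of the 4 fits without a BC3 array (adjusted p up to 0.148 and 0.180). The DNA sensor gene CGAS had the lowest value of the list, -0.37 ± 0.14 (adjusted p = 0.199). Of 13 tested interferon regulatory factors and partners, IRF7 (923 and 760.1 with lenalidomide, against 507 and 611 with DMSO; 0.68 ± 0.15) and BATF (1697 and 1473 with lenalidomide, against 992 and 1203 with DMSO; 0.61 ± 0.13) rose. Neither call held when any 1 BC3 array was left out (adjusted p up to 0.229 and 0.153). Among 16 interferon receptors, kinases and signal transducers 1 rose, the feedback inhibitor SOCS2, at 4934 and 4308 with lenalidomide, against 2548 and 3236 with DMSO (0.77 ± 0.14). Its call held in 2 of those 4 fits.

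MHC class II genes, which present peptides to helper T cells, had 4 of 19 members higher and 0 lower, a median of 0.33 and 18 of 19 changes above 0. Of all genes 3.25% were higher and 1.20% lower. HLA-DRA read 9648 and 8206 with lenalidomide, against 5732 and 7323 with DMSO (0.51 ± 0.12) and HLA-DMB, a peptide-loading chaperone, read 1075 and 966 with lenalidomide, against 613 and 768 with DMSO (0.66 ± 0.12). HLA-DRB1 and HLA-DRB4 rose by 0.68 ± 0.13 and 0.82 ± 0.14, but their near-identical sequences may share probes. CIITA, the master activator of these genes, read 186 and 194 with lenalidomide, against 158 and 189 with DMSO, with groups that overlapped (0.18 ± 0.16, adjusted p = 0.616). Of these 4 calls 1 or 2 held with DMSO array a or b left out, and 3 or 0 with lenalidomide array a or b left out. The HLA-DRA call held in 0 of those 4 fits (adjusted p up to 0.192) and the other 3 in 2 each. Of 20 MHC class I and peptide-loading genes 0 were called by limma, with 1 at an unadjusted p under 0.05 and a median of 0.024; the other settings called 0 or 1. Of 19 ligands seen by T and NK cells 2 rose, where 3.25% of all genes rose: TNFSF9, the 4-1BB ligand, at 1131 and 1123 with lenalidomide, against 413 and 654 with DMSO (1.27 ± 0.18), and NECTIN2, at 229 and 205 with lenalidomide, against 148 and 148 with DMSO (0.79 ± 0.15), whose next probe gave 0.19. The TNFSF9 call held in all 4 fits without a BC3 array and the NECTIN2 call in 1, without DMSO array a.

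Genes more usual in epithelia and granulocytes than in lymphocytes rose in several families. In the S100 family 6 of 13 tested members rose and 0 fell, where 3.25% of all genes rose. Beside S100A8 and S100A9 these were S100A2 (500.3 and 481 with lenalidomide, against 158 and 189 with DMSO; 1.89 ± 0.13), S100A16 (at least 1.85-fold), S100A11 (0.73 ± 0.12) and S100A13 (0.66 ± 0.13). Over all settings tried, S100A11 ran from 0.61 to 0.84 and S100A13 from 0.30 to 0.78. The S100A13 call held in 7 of the 9 other settings that kept all BC3 arrays, and its next probe gave 0.33 and was not called. The other 7, among them S100A4 (-0.052 ± 0.11), ran from -0.29 to 0.26. Of 30 tested keratin, mucin and epithelial junction genes 6 rose and 0 fell. KRT8, a keratin of simple epithelia, read 486 and 432 with lenalidomide, against 155 and 177 with DMSO (1.86 ± 0.11), while its usual partner KRT18 read 259 and 259.9 with lenalidomide, against 203 and 247 with DMSO and was not called (0.27 ± 0.13, adjusted p = 0.324). MUC13, another membrane mucin, read 2686 and 2484 with lenalidomide, against 886 and 998 with DMSO (1.60 ± 0.12) and CDH1, which encodes E-cadherin, read 628 and 628 with lenalidomide, against 328 and 349.9 with DMSO (1.03 ± 0.14). ELF3, an epithelial transcription factor, rose by 0.67 ± 0.16, a call that held in 1 of the 4 fits without a BC3 array. KRT19, KRT7, KRT5, OCLN, DSP and 17 further members of this list had no probe above background on both arrays of any group.

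Of 14 tested myeloid markers 5 rose and 0 fell, where 3.25% of all genes rose, and the other 9 ran from -0.25 to 0.42. Those that rose were S100A8 and S100A9, also counted above, the transcription factor genes CEBPA (989.9 and 974 with lenalidomide, against 583 and 667 with DMSO; 0.76 ± 0.12) and CEBPD (0.62 ± 0.12), and the lysosomal glycoprotein gene CD68 (0.67 ± 0.14). Without lenalidomide array b 2 of them were called, and without each of the other BC3 arrays 3 or 4. LYZ, CSF1R, ELANE, CSF3R, TYROBP and 9 further members had no probe above background on both arrays of any group, and CD14 read 192 and 163 with lenalidomide, against 149 and 179.6 with DMSO, near background. The summed intensities of the 6 myeloid markers used to check the line were 1483 and 1307 with lenalidomide, against 1074 and 1194 with DMSO. CD68 alone gave 694 and 578 of these with lenalidomide, against 386 and 460 with DMSO, and no other marker in that sum was called. The summed intensities of the 5 epithelial markers were 8605 and 6706 with lenalidomide, against 6690.1 and 8167 with DMSO. The part of other cells in these rises was not tested beyond these markers. The CD68 call held in 0 of the 4 fits without a BC3 array, but its next probe rose by 1.85. Of 13 fibroblast, endothelial and erythroid markers 0 were called by limma, in any setting, with 4 at an unadjusted p under 0.05.

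Several genes for secreted proteins of innate defence were higher too. Of 15 tested complement genes 4 rose and 0 fell, where 3.25% of all genes rose and 1.20% fell. CFB, factor B of the alternative pathway, read 514 and 486 with lenalidomide, against 159.7 and 176 with DMSO (1.98 ± 0.12), and CFI, the protease that stops that pathway, read 1191 and 1128 with lenalidomide, against 568 and 639 with DMSO (1.08 ± 0.13). C5 and the receptor gene C3AR1 (at least 1.5-fold) were the others, and the count was 2 without lenalidomide array a or DMSO array a and 3 without either of the other BC3 arrays. Of 28 proteases and inhibitors 6 rose and 2 fell, counts that dropped to 2 and 0 without DMSO array b. Granzyme genes went both ways: GZMA, bright in these cells, read 5802 and 5112 with lenalidomide, against 2396 and 3179 with DMSO (1.06 ± 0.12), while GZMB read 160.1 and 145 with lenalidomide, against 211 and 255 with DMSO (fell by 0.87 ± 0.14). GZMH fell by 0.71 ± 0.16, but GZMB and GZMH are alike in sequence and their probes may share signal. SERPINH1, a collagen chaperone, rose by 0.83 ± 0.13 and the metalloprotease gene ADAM19 by 0.67 ± 0.13. The other rises were SLPI, PLAU (0.61 ± 0.15) and TIMP1 (0.56 ± 0.14). Of 27 galectin and matrix genes MGP, PROS1 and LGALS3BP rose. PROS1, the anticoagulant protein S, read 799 and 653 with lenalidomide, against 361 and 387 with DMSO (1.10 ± 0.12), and LGALS3BP, a secreted galectin ligand, read 1855 and 1692 with lenalidomide, against 895 and 1182 with DMSO (0.88 ± 0.13). LGALS14 fell by 0.75 ± 0.12 on 1 probe and had 0.43 on its next.

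Genes that slow the cell cycle were among the rises. CDKN1A, the cyclin-dependent kinase inhibitor p21, read 5804 and 5008 with lenalidomide, against 1804 and 1982 with DMSO, a change of 1.62 ± 0.14 or 3.07-fold (adjusted p = 1.35e-05), and was the 1 called gene among 13 kinase inhibitors and D-type cyclins. GADD45A, a growth arrest gene induced by p53 and other stress pathways, read 2671 and 2118 with lenalidomide, against 802 and 887 with DMSO (1.64 ± 0.12, adjusted p = 4.19e-06). Both calls held under all settings tried, and their next probes rose by 0.82 and 1.21. With RRM2B (0.67 ± 0.13) and SERTAD1 (0.54 ± 0.14) they were the 4 of 26 p53 pathway genes that rose, 0 fell, and the median was -0.015. Without 1 BC3 array that count was 2 or 3, as the SERTAD1 call held in 0 and the RRM2B call in 1 of those fits. Of 33 genes of the BCL2 family, caspases and death ligands 3 rose, GSDMB, TNFSF10 and BIRC2, and 0 fell, where 3.25% of all genes rose. The BIRC2 call held in 1 of the 4 fits without a BC3 array, and the others in all 4.

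Of 49 tested growth genes that MYC induces 4 fell and 0 rose, or 8.16% lower against 1.20% of all genes. The list's median was -0.23, and 43 of the 49 changes were below 0. SLC7A5, a transporter of large neutral amino acids, read 228 and 210.1 with lenalidomide, against 314 and 363 with DMSO (fell by 0.80 ± 0.11). ODC1, the first enzyme of polyamine synthesis, read 2777 and 2825 with lenalidomide, against 4295 and 5213 with DMSO (fell by 0.74 ± 0.13), and SRM, the spermidine synthase, read 2044 and 1779 with lenalidomide, against 2635 and 3406 with DMSO (fell by 0.63 ± 0.12). The nucleolar protein gene NOP16 read 1148 and 1062 with lenalidomide, against 1644 and 1993 with DMSO (fell by 0.72 ± 0.12). The count was 2 without lenalidomide array a and 1 without DMSO array b, and 4 without either of the others. Of 66 replication and mitosis genes 3 fell and 0 rose, where 1.20% of all genes fell, and their median was -0.20. The falls were GINS2, MCM10 and CCNA2, by 0.62 ± 0.13, 0.59 ± 0.14 and 0.49 ± 0.12. None of these 3 calls held in any of the 4 fits without a BC3 array (adjusted p up to 0.165, 0.241 and 0.223). MYC and its 12 tested partners had 0 calls by limma in any setting, with 5 at an unadjusted p under 0.05. Of 39 cytosolic ribosomal protein genes 0 were called by limma in any setting and 0 had an unadjusted p under 0.05, with changes between -0.18 and 0.28.

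Part of the immediate-early and stress-induced regulators rose. Of 38 tested members of the AP-1, early growth response and Kruppel-like families and related genes, 11 rose and 0 fell, or 28.9% higher against 3.25% of all genes, with a median of 0.12. Among the related genes are RHOB, TSC22D3, ID3 and CITED2, in a list made with earlier results known, so the share describes this list only. After RHOB came TSC22D3, a leucine zipper gene best known as a glucocorticoid target, at 459 and 404 with lenalidomide, against 224 and 259 with DMSO (1.01 ± 0.12). ID3, an inhibitor of helix-loop-helix factors, read 2047 and 1881 with lenalidomide, against 906 and 1217 with DMSO (1.01 ± 0.16). CITED2, a transcriptional coregulator, read 2525 and 1889 with lenalidomide, against 1136 and 1375 with DMSO (0.92 ± 0.12). KLF6 and JUN rose by 0.85 ± 0.13 and 0.82 ± 0.14. FOS, FOSL1 and KLF4 were near background and not called (0.25 ± 0.13, -0.30 ± 0.14 and -0.35 ± 0.18). Without 1 BC3 array 5 to 7 members were called, fewest without DMSO array b.

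Signalling genes of the NF-kB system went both ways. Of 25 tested members 5 rose and 2 fell, against 3.25% and 1.20% of all genes, around a median of -0.073. Those that rose were NFKBIZ, an atypical inhibitor (413 and 311 with lenalidomide, against 200.2 and 219.6 with DMSO; 0.95 ± 0.13), the kinase gene MAP3K8 (0.83 ± 0.14), BIRC2 (0.73 ± 0.15), the feedback deubiquitinase gene TNFAIP3 (0.60 ± 0.14) and BCL3 (0.58 ± 0.13). RELB, a subunit of the non-canonical pathway, fell by 0.52 ± 0.13, and NFKBIE, named after its value was seen, by 0.51 ± 0.13. The next NFKBIZ probe gave 0.04. The counts without 1 BC3 array were 1 to 4 higher, fewest without DMSO array a, and 0 lower. Of 30 tested interleukins, chemokines and growth factors 5 rose and 0 fell. CCL5, a chemokine for T cells and monocytes, read 1062 and 834 with lenalidomide, against 566 and 622 with DMSO (0.76 ± 0.13), while CCL1, CCL20 and CXCL11 stood near background and rose at least 1.51, 1.27 and 1.25-fold. LTB, the membrane anchor of lymphotoxin, rose by 0.71 ± 0.17. IL6 and IL10, growth factors of this lymphoma, gave 0.38 ± 0.13 and -0.0093 ± 0.13 and were not called. Without 1 BC3 array 1 or 2 of these cytokine genes were called.

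Receptor genes had 3 of 37 tested members higher and 4 lower; without 1 BC3 array 2 were higher and 1 or 2 lower, fewest without DMSO array b. With all arrays, 3.25% of all genes were higher and 1.20% lower. IL13RA1, a subunit of the receptor for IL-4 and IL-13, read 849.5 and 653 with lenalidomide, against 364 and 362 with DMSO (1.19 ± 0.13, adjusted p = 1.18e-04). The tumour necrosis factor receptor genes TNFRSF1A and LTBR rose by 0.80 ± 0.12 and 0.65 ± 0.13. CCR2, a chemokine receptor of monocytes, read 682 and 558 with lenalidomide, against 1054 and 977 with DMSO (fell by 0.77 ± 0.14), and IL27RA read 602 and 552 with lenalidomide, against 836 and 993 with DMSO (fell by 0.71 ± 0.12). TNFRSF1B, named after its value was seen, fell by 0.54 ± 0.12. TNFRSF17, the plasma cell receptor BCMA, read 3896 and 3575 with lenalidomide, against 5671 and 7532 with DMSO (fell by 0.78 ± 0.12, adjusted p = 0.00290).

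Plasma cell genes were lower in part, where 1.20% of all genes fell and 3.25% rose. Of 24 tested plasma cell markers and genes of the secretory machinery 5 fell and 2 rose (CREB3L2 and DNAJB9, by 0.49 ± 0.12 and 0.49 ± 0.13), around a median of -0.063. Beside TNFRSF17 the falls were FKBP11 (3752 and 3029 with lenalidomide, against 4857 and 6349 with DMSO; fell by 0.70 ± 0.12) and TXNDC5 (3765 and 3129 with lenalidomide, against 5226 and 5697 with DMSO; fell by 0.65 ± 0.12), which help fold secreted proteins, SLAMF7 (fell by 0.62 ± 0.16) and JCHAIN, the joining chain of IgM and IgA (fell by 0.59 ± 0.13). SDC1, PRDM1, XBP1 and CD38 were not called (changes of 0.21 ± 0.13, -0.012 ± 0.18, 0.16 ± 0.12 and 0.27 ± 0.16). TNFRSF17, FKBP11 and TXNDC5 kept their calls in 3 of the 4 fits without a BC3 array, JCHAIN in 1 and SLAMF7 in 0. The lower count was 1 without DMSO array b and 3 without each of the others, and the higher count was 0 in all 4. Of 11 tested B-cell identity genes 0 were called by limma in any setting, with 3 at an unadjusted p under 0.05. Another 17 of that list had no probe above background on both arrays of any group. Of 21 T and NK cell markers 2 rose and 4 fell: GZMA and CD2 (by 0.61 ± 0.12) rose, and GZMB, GZMH, the perforin gene PRF1 (by 0.67 ± 0.15) and CD3E (by 0.51 ± 0.12) fell. Without 1 BC3 array 1 or 2 were higher and 0 or 1 lower.

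Metabolic, stress and remaining lists held few calls each, with shares on both sides of that of all genes. Of all genes 3.25% rose and 1.20% fell. The shares called in either direction were 3.33% for mitochondrial complexes I and IV, 3.03% for lysosome genes and 4.44% for G protein genes. None of these was above the 4.45% of all genes. The other lists of this paragraph were above it. Their shares were 6.25% for metallothioneins and zinc transporters, 7.14% for amino acid shortage and unfolded protein stress and 8.33% for cancer-testis genes. Hypoxia and glycolysis genes had 9.38%, cholesterol and fatty acid synthesis 13.3%, and integrins, selectin ligands and tetraspanins 15.4%. DDIT4, an inhibitor of mTORC1 induced by stress, read 3392 and 2647 with lenalidomide, against 1653 and 1996 with DMSO (0.80 ± 0.11). It counts both among the 2 of 28 genes of amino acid shortage and unfolded protein stress that rose, with DNAJB9 (0.49 ± 0.13), and among the hypoxia and glycolysis genes, of which 2 of 32 rose and 1 fell. NDRG1, a hypoxia-induced gene, read 5758 and 4515 with lenalidomide, against 2857 and 3518 with DMSO (0.76 ± 0.11), whereas BNIP3, a mitophagy receptor also induced by hypoxia, read 1628 and 1100.5 with lenalidomide, against 2229.9 and 2562 with DMSO (fell by 0.83 ± 0.14). The BNIP3 call was lost without lenalidomide array b (adjusted p up to 0.105 over all settings). In cholesterol and fatty acid synthesis, 3 of 30 genes rose, ELOVL6 (0.62 ± 0.12), ACSS2 (0.59 ± 0.12) and SREBF1 (0.49 ± 0.12), and ACSS1 fell; without 1 BC3 array 0 or 1 rose, 0 without lenalidomide array b or DMSO array b. Of 30 subunits of mitochondrial complexes I and IV, COXFA4L3 was the 1 called gene, and the other 29 ran from -0.32 to 0.21. Among 45 G protein subunits and regulators GNG7 fell and RGS1 rose (0.49 ± 0.12). Of 16 metallothioneins and zinc transporters MT1E fell by 0.70 ± 0.15, and of 24 cancer-testis genes CT45A6 and PLD6 fell. Of 26 integrins, selectin ligands and tetraspanins 3 rose, CD9, ITGB7 (0.49 ± 0.12) and TSPAN31 (0.54 ± 0.12), and CD44 fell by 0.50 ± 0.13. Without lenalidomide array a or b or DMSO array b 1 of those rises was called, without DMSO array a 2, and the fall in none of the 4 fits. CD9, a tetraspanin, read 1826 and 1643 with lenalidomide, against 828 and 1004 with DMSO (1.03 ± 0.16), but its next probe gave 0.013. Of 33 vacuolar proton pump and lysosome genes CD68 was the 1 that rose. The calls of DNAJB9, SREBF1, RGS1, MT1E, ITGB7, CD44 and CD68 held in 0 of the 4 fits without a BC3 array, and those of TSPAN31, ELOVL6 and ACSS2 in 1.

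**Figure D4:**
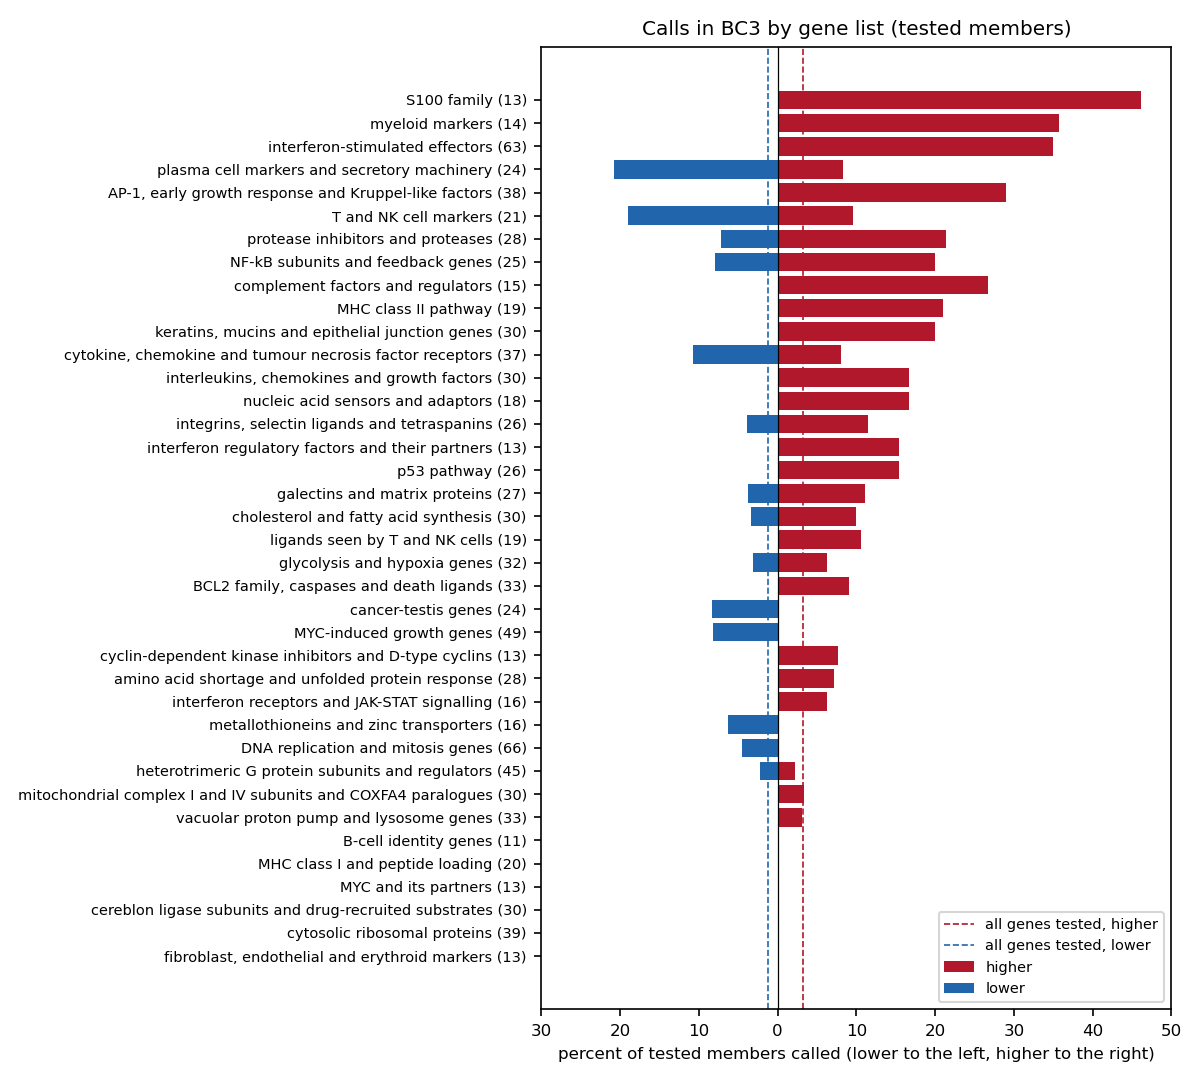
Share of the tested members of each of 38 gene lists called lower (blue, to the left) or higher (red, to the right) in BC3, with the number tested in brackets and dashed lines at the shares of all genes tested (1.20% lower, 3.25% higher). The S100 family has the highest share of rises (6 of 13), and plasma cell markers have the highest share of falls (5 of 24).

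A second probe on the same arrays was available for 179 of the 566 called genes. It moved the same way in 167 of them (93.3%), against 63.7% of all 3524 genes with a second probe, and was itself called the same way in 62, against 2.58% of second probes called among all such genes. Over all kept probes, 2.64% were called. Probes of a gene share the RNA of the arrays, so this describes agreement between probes and not between samples. Called genes named here whose next probe stayed within 0.11 of 0 were CD9, NFKBIZ, SREBF1 and TSC22D1. Weaker next probes that were not called included those of PARP9 (0.66 against 1.40), HLA-DRB4 (0.31 against 0.82), LTB (0.29 against 0.71) and TLR3 (0.17 against 0.59).

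The response of BC3 was then set against that of BCBL1, each against its own DMSO arrays. In BCBL1 373 genes were called (2.93%), of which 166 were also called in BC3: 29.3% of the BC3 calls and 44.5% of the BCBL1 calls. In 164 of the 166 the direction was the same. Of the 566 genes called in BC3, 85.9% had a change of the same sign in BCBL1, against 60.3% of all genes. The BC3 genes that rose had a median change of 0.68 in BC3 and 0.34 in BCBL1, and those that fell had -0.61 in BC3 and -0.24 in BCBL1; the genes were chosen by their BC3 values. The difference itself, BC3 change minus BCBL1 change, was called for 63 genes (0.495%), 41 above 0 and 22 below. Of these 63, 48 were called in BC3. The count of differences was 43 or 31 with lenalidomide array a or b of BC3 left out, and 25 or 35 with DMSO array a or b left out.

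The calprotectin genes differed most upward. S100A8 rose in BC3 and had -0.15 in BCBL1, a difference of 2.62 ± 0.21 (adjusted p = 5.28e-05). S100A9 had 0.53 in BCBL1, a difference of 2.38 ± 0.20 (adjusted p = 7.35e-05). COXFA4L3 and MUC1 rose in both lines but more in BC3, with differences of 2.15 ± 0.19 and 2.14 ± 0.20 (adjusted p = 1.09e-04 and 2.12e-04), and in BCBL1 they had 2.12 and 0.91. SLPI, C6orf58 and UBD followed, with differences of 1.57 ± 0.19, 1.57 ± 0.19 and 1.5 ± 0.20. The caveolin gene CAV1, named after its values were seen, read 3751 and 3404 with lenalidomide, against 1189 and 1322 with DMSO in BC3 (1.63 ± 0.12) and had 0.29 in BCBL1, a difference of 1.34 ± 0.16 (adjusted p = 0.00203). Under the other settings that kept all arrays, the differences of COXFA4L3, MUC1 and S100A8 were called in each. Those of SLPI, C6orf58 and CAV1 were called in 7 of 8, that of S100A9 in 6 of 7 and that of UBD in 4 of 7. No fit of a difference between the lines left out a BCBL1 array. TSC22D1, a leucine zipper regulator, had a difference of 1.44 ± 0.21, but its next probe changed by 0.053 in BC3.

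Of the 63 interferon-stimulated effectors 4 differed. IFIT1 (1.24 ± 0.18), OAS3 (1.25 ± 0.22) and TNFSF10 (1.07 ± 0.18) rose more in BC3, and LGALS3BP rose less (-1.29 ± 0.19). The differences of IFIT1 and LGALS3BP were called in all 4 fits without a BC3 array, that of TNFSF10 in 1 and that of OAS3 in 0. MGP rose in both lines, and its rise in BC3 was smaller by the widest margin among genes called in BC3 (-2.63 ± 0.18, adjusted p = 1.77e-05). ATP6V1B1, which encodes part of the vacuolar proton pump, stayed near background in BC3, at 177 and 163 with lenalidomide, against 148 and 140.4 with DMSO (0.36 ± 0.14, adjusted p = 0.183), but had 3.27 in BCBL1, a difference of -2.91 ± 0.19 (adjusted p = 1.77e-05). FZD2, a WNT receptor gene, was above background on 0 BC3 arrays (-1.60 ± 0.18). TGM2, a transglutaminase gene, and ABCA1, a cholesterol exporter gene, were also near background in BC3 and higher with lenalidomide in BCBL1 (-1.39 ± 0.21 and -1.33 ± 0.19). NOC3L, a nucleolar gene, was called in opposite directions: it read 1009.8 and 635 with lenalidomide, against 1199 and 1509 with DMSO in BC3 (fell by 0.78 ± 0.15) and had 0.70 in BCBL1, a difference of -1.48 ± 0.21 (adjusted p = 0.00710). Its calls depended on the processing: under other settings that kept all BC3 arrays, its BC3 fall was called in 6 of 9 and its difference in 5 of 8.

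**Figure D5:**
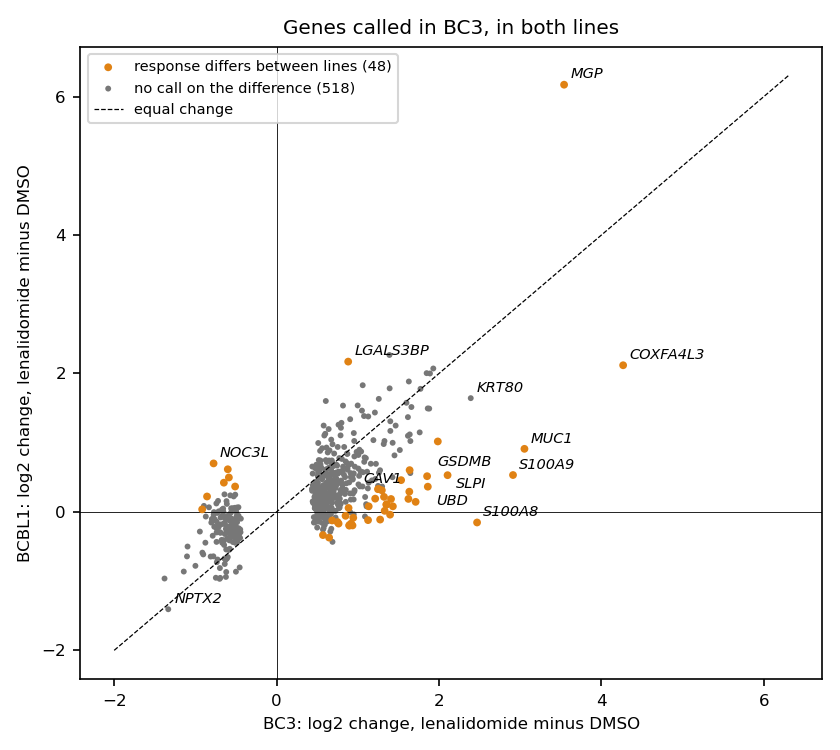
Change in BCBL1 (log2, lenalidomide minus DMSO, vertical axis) against change in BC3 (horizontal axis) for the 566 genes called in BC3, with the 48 whose response differs between the lines in orange and a dashed line at equal change. S100A8 and S100A9 lie far below the dashed line, MGP and LGALS3BP above it, and NOC3L lies left of and above 0.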

How the data were processed

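Gene expression in BC3 and BCBL1 cells was measured on Illumina 1-colour bead arrays labelled with Cy3 from total RNA. The authors deposited probe intensity values on a linear scale without normalization between arrays, as judged from the values, and no detection p-values. A second deposited table held log2 values; limma is named in the submitters' processing notes, without its function, offset or version. The rank correlation of each array's intensities with 1 column of the log2 table was 1, which gave arrays a and b of a group as replicates 1 and 2.

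Intensities were corrected with normexp (offset 50), quantile-normalized and taken to log2 (R 4.3.3, limma 3.58.1). The offset makes the change of dim genes appear smaller. Background was rebuilt from each array as the mode of its signals with the SD of the lower side, and a probe was above background past the point that 5% of such background would exceed. Of 47323 probes 1, listed at 0, was left out, and 24097 (50.9%) were kept because both arrays of 1 or more of the 4 groups showed them above background. Probe names came from the platform annotation, updated through RefSeq: 30113 probes had 1 symbol (39 kept as annotated), 8 several and 17201 none. The brightest kept probe stood for each of 12719 genes.

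All 8 arrays entered 1 limma model in which each group had its own mean (4 residual and 8.76 prior degrees of freedom), and contrasts were taken for lenalidomide against DMSO in each line and for their difference, adjusted by Benjamini-Hochberg with a threshold of 0.05. The script was tested on simulated data. Precision is limited by the number of arrays. The 38 gene lists (1359 entries, 1027 tested) and the comparison were chosen with earlier results of these data known. Genes named were IKZF1, IKZF3, IRF4, MYC and CRBN, the 20 largest rises and falls, up to 6 called members per list, the 8 largest differences between lines in each direction, and up to 6 genes in each direction not above background in 1 group; PLAU, TIMP1, the uncalled genes named beside these, and those marked in the text were chosen after their values were seen. Alternatives were the BC3 arrays alone, other offsets and scalings, no or a stricter filter, the mean of probes, the deposited log2 values with and without a replicate block, and leaving out each BC3 array.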

Additional observations from a re-analysis of the deposited data

Results flagged for a closer look

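The response differed between BC3 and BCBL1, by limma's test of the difference of the log2 changes, for 25 of the genes named by the rule. The difference, BC3 change minus BCBL1 change, was 2.62 for S100A8, 2.38 for S100A9, 2.15 for COXFA4L3 and 2.14 for MUC1. It was 1.57 for SLPI and for C6orf58, 1.5 for UBD, 1.44 for TSC22D1, 1.34 for GSDMB and 1.24 for IL4I1. Smaller differences above 0 were 1.09 for CITED2, 1.07 for TNFSF10, 0.97 for CFB and 0.93 for CEBPA. Below 0 were ATP6V1B1 at -2.91, MGP at -2.63, FZD2 at -1.60, NOC3L and ARL14EPL at -1.48 each, TGM2 at -1.39 and ABCA1 at -1.33. LGALS3BP had -1.29, AQP3 and IRX6 -1.08 each, and LRRC26 -0.95. The calls for AQP3, IRX6 and LRRC26 held in 0 of the 4 fits that left out a BC3 array, those for CEBPA, CFB and TNFSF10 in 1, that for IL4I1 in 2, and those for CITED2 and TSC22D1 in 3. IL4I1, an enzyme gene that breaks down aromatic amino acids, was not above background under DMSO in BC3 and rose there at least 1.72-fold.

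Probes without a single gene symbol were used in no gene comparison above. They were part of the fit over all kept probes that gave the calls of next probes. Of 6741 such probes kept, 75 were called in BC3, 50 higher and 25 lower with lenalidomide, or 1.11% against 3.23% of kept probes with a symbol.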

How the results depend on the processing

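Leaving out any 1 BC3 array gave 206 to 313 calls against 566, 183 to 222 higher against 414, 23 to 91 lower against 152, and 25 to 43 differences between lines against 63. The share of calls that were higher was 88.8% when DMSO array b was left out and 83.3% for lenalidomide array b, against 73.1%. With normexp offset 16 the counts were 345 called, 274 higher, 71 lower and 21 differences. The authors' deposited log2 values gave 371 called, 83 lower and 30 differences. Only probes above background on all 8 arrays gave 30 differences. Replicate numbers did not pair the samples, as deviations of same-numbered arrays correlated by 0.049 in BC3 and 0.046 in BCBL1; with them as a replicate block on the deposited values, 257 genes were called, 209 higher and 48 lower, with 9 differences. For second probes, 88.1% moved the same way as the called probe without a filter on dim probes, against 93.3%. Fewer arrays enter each fit that leaves one out; for the other settings the cause was not tested. BC3 arrays alone, cyclic loess, median scaling, no filter, the stricter filter and the mean of probes gave 450 to 586 calls. The median change of all genes stayed between -0.022 and 0.0034, but normalization between arrays largely sets it near 0. Of the 139 named genes called, 57 were called in every setting that held them, 27 lost the call in at least as many settings as kept it, and 0 changed sign. All settings share the same BC3 arrays, and values that do not overlap between groups fix the sign where 1 BC3 array is left out. The lack of sign changes is therefore no further support. Precision is limited by 2 technical arrays per group and by signal near background for dim genes.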
